A study of Mus musculus with 8 samples.

Results

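The interleukin-1 (IL-1) genes described here are 8 genes chosen by symbol, out of 21080 gene symbols measured, and all 8 had a row with a value in each sample. They comprise the ligands Il1a, Il1b and Il18, the soluble inhibitors Il1rn and Il18bp, the decoy receptor Il1r2, the signalling receptor Il1r1 and its partner chain Il1rap. The RNA-seq covered 8 samples of BMDMs, the macrophages that grow out of femoral bone marrow in M-CSF. WT samples came from LysM-Cre littermates on the C57BL/6 background, and Nudt21-cKO samples (cKO) came from mice that also carry floxed Nudt21 alleles, so that both genotypes carry LysM-Cre, a Cre driven in myeloid cells. Each genotype was measured in 2 samples at 0 h and in 2 samples at 4 h, WT samples being numbered 1 and 2 and cKO samples 3 and 4, and each sample pooled the cells of 2 mice. The 4 h cells had been primed with IFNγ at 50 ng/ml overnight and then given LPS at 50 ng/ml for 4 h. The 0 h samples were taken as unstimulated from their titles, although another of their labels names the stimulation too. Sex was matched between genotypes, and the ages of the mice are not given in the sources used here.

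IL-1α and IL-1β are alarm cytokines of macrophages. Both bind IL1R1, which recruits IL1RAP and signals through MyD88 to NF-κB. IL1R2 binds the same ligands without signalling, and the receptor antagonist encoded by Il1rn occupies IL1R1 without recruiting the partner chain. IL-18 belongs to the same family, uses its own receptor and is neutralized by the secreted IL-18 binding protein. Nudt21 encodes a subunit of cleavage factor Im, which binds UGUA in pre-mRNA and guides the choice of polyadenylation site. Comparing these genes asks how the balance of ligand, antagonist and receptor transcripts stood with and without Nudt21, before and after stimulation.

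A value is the read coverage of a gene averaged over its bases, so that levels can be compared between genes, and no scaling was applied between samples. Summed coverage over all genes ran from 14950347 to 17954882 per sample, and the cKO samples had the higher sums at each time. The targeted gene, Nudt21, read 718 and 641 in WT against 158 and 172 in cKO at 0 h, with 547 and 575 against 142 and 115 at 4 h. Summed macrophage markers ran from 118243 to 130748 at 0 h, and at 4 h from 50581 to 55388 in WT and from 61847 to 64858 in cKO. The sums hide markers that went both ways, with Cd68 called higher in cKO at both times (means of 12731 and 26822 at 4 h) and Lyz2 at 4 h, Adgre1 and Fcgr1 called lower at 0 h, and Adgre1 at means of 12850 and 9313 at 4 h, not called. The 9 neutrophil markers summed to between 23963 and 26527 in WT and between 27807 and 36865 in cKO at 0 h. At 4 h they summed to between 18010 and 22254 in WT and between 22714 and 25793 in cKO. None of the 9 was called at 0 h. The defining marker Ly6g was low in every group. It read 0.000183 and 7.37 in WT and 0 in both cKO samples at 0 h. At 4 h Ly6g read 0 and 4.09 in WT and 1.79 and 5.37 in cKO. Of the T and NK cell markers, Cd3e, Cd3g and Ncr1 were under a mean of 1 in every group. Nkg7 had a mean of 13.9 in both genotypes at 0 h, and of 2.72 in WT and 3.22 in cKO at 4 h. The 7 fibroblast markers summed to between 53.3 and 229, and 2 of the 6 that were tested (Col3a1 and Pdgfra) were called higher in cKO at 0 h and 1 (Col3a1, log2 1.22) at 4 h, where 8.99% and 20.8% of all genes tested were called higher. The neutrophil marker Camp was also called higher at 4 h (log2 0.66), and of 4 dendritic cell markers Zbtb46 was called higher (log2 1.53) and Xcr1 lower (log2 -3.17) at that time, while none of the 3 tested at 0 h was called. After each sample was centred on its median gene, Cd68, Zbtb46 and Xcr1 kept their 4 h calls, Lyz2, Camp and Col3a1 lost theirs, and Adgre1 (log2 -0.80), Fcgr1 (log2 -0.63) and the neutrophil marker Mpo (log2 -0.71) were called lower at 4 h. Centring also brought a call of lower Csf1r at 0 h (log2 -0.65), where 7.25% of all genes were then called higher and 6.98% lower. The part of these markers in the results below was not tested, and in bulk RNA a change in the number of cells of a type cannot be told apart from a change in RNA per cell.

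The genotypes were compared with limma on log2(coverage + 0.1), and a gene was called when its fold change exceeded 1.5 with an unadjusted p under 0.05. The change of effect, that is the genotype effect at 4 h minus that at 0 h, was called at an adjusted p under 0.05 (Benjamini-Hochberg over all genes tested). With 2 samples against 2, an exact permutation test cannot go below 0.333, so the calls rest on the variance that limma shares across genes.

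In resting BMDMs the loss of Nudt21 went with higher transcripts of Il1a and of the antagonist Il1rn and with lower Il18bp, while Il1b was not called. After 4 h of IFNγ/LPS, Il1b was lower in cKO by 1.98-fold and was the one member called. At 0 h, 2 of the 8 members were called higher and 1 lower, where 8.99% of 16251 genes tested were called higher and 5.61% lower. At 4 h no member was called higher and 1 was called lower, where 20.8% of 14950 genes were called higher and 4.17% lower. Members had a median log2 fold change of -0.15 at 0 h and -0.26 at 4 h, beside medians of 0.10 and 0.31 over all genes tested. These calls use the unadjusted p, and as processed here no member had an adjusted p under 0.05 between genotypes by limma at either time. With an intensity trend in the variance, Il1b, Il18 and Il18bp did at 4 h and Il1a, Il1rn and Il18bp at 0 h, and with all 8 samples in the fit, Il1b and Il18bp did at 4 h and Il1rn at 0 h. Because the median gene was itself higher in cKO at 4 h, member values relative to that median are given below where they differ in call. With each sample centred on its median, 10.4% of all genes were called higher at 4 h and 9.9% lower, and after quantile normalization 10.2% and 9.87%.

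**Figure D1:**
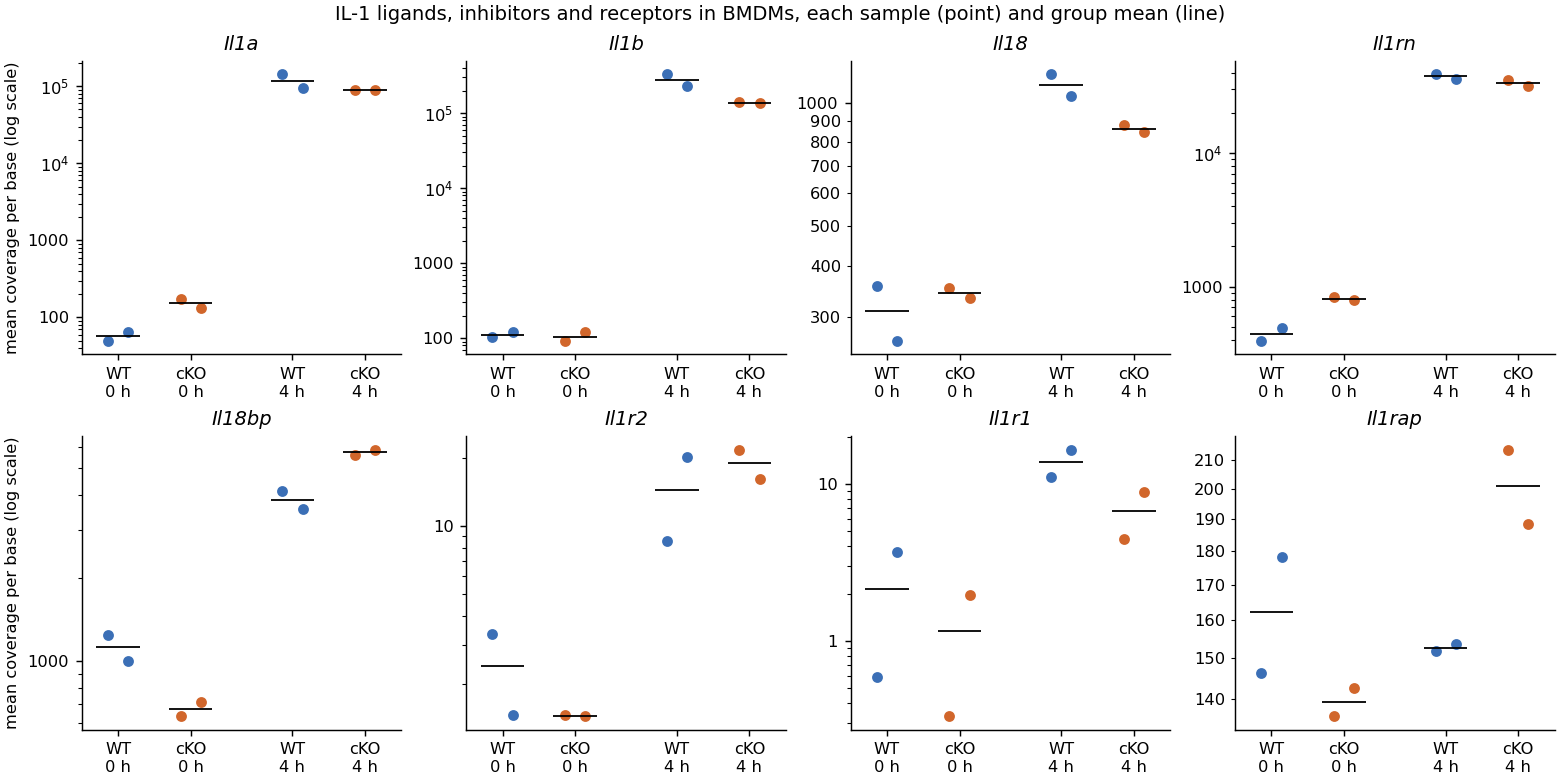
Mean coverage per base (log scale, a separate scale in each panel) of the 8 IL-1 genes in each of the 2 samples (points) of WT (blue) and cKO (orange) at 0 h and 4 h, with group means as lines. Il1b in both cKO samples at 4 h (140741 and 135677) lies below both WT samples (329267 and 227495), whereas Il1a and Il1rn lie above WT at 0 h.

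Il1b encodes IL-1β, which is made as an inactive precursor and cut by caspase-1. Its gene lies on the minus strand of GRCm38 at chr2:129364570-129371139. At 0 h its coverage was 102 and 121 in WT and 91.2 and 119 in cKO. The groups overlapped, and the log2 fold change was -0.093 (SE 0.21, adjusted p = 0.818 by limma). At 4 h the coverage was 329267 and 227495 in WT and 140741 and 135677 in cKO. Both cKO samples lay below both WT samples, which themselves differed more from each other than the cKO samples did. Il1b fell by 0.99 on the log2 scale (SE 0.24, adjusted p = 0.101 by limma), and by 1.29 relative to the median gene. Among all genes in a sample, Il1b ranked 2 in both WT samples at 4 h and 14 and 15 in the cKO samples. It held 2.12% and 1.52% of the summed coverage of the WT samples against 0.811% and 0.756% of the cKO samples. Without cKO sample 3 the difference was -1.01 and without cKO sample 4 it was -0.96, but the call was lost in each case. Its size depended on which WT sample was kept, at -0.72 without WT sample 1 and -1.25 without WT sample 2.

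Il1b also has an antisense neighbour, Il1bos, which shares 25 exon bases with it on the opposite strand. Counting by strand is not stated, so reads of the 2 genes cannot be told apart over those bases. The mean coverage of Il1bos was 99.8 in WT and 51.7 in cKO at 4 h, far below that of Il1b. The study measured Il1b by RT-qPCR with a primer pair, shown here to place that assay on the transcript whose coverage fell. Both primers match Il1b transcripts and those of no other gene.
Il1b forward primer: tgccaccttttgacagtgatg
Il1b reverse primer: tgatgtgctgctgcgagatt
The forward primer spans the junction of exons 2 and 3 (chr2:129369747-129370299, intron included) and the reverse primer lies in exon 4 (chr2:129368086-129368105), of 7 exons. They bound 138 bases of the coding sequence, before the 3'UTR.

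Il1a encodes IL-1α, which is active without cleavage by caspase-1 and signals through the same receptor. It lies beside Il1b on the minus strand at chr2:129299610-129309972. At 0 h Il1a coverage was 49.3 and 64.9 in WT and 173 and 134 in cKO. Both cKO samples were above both WT samples, a rise of 1.43 on the log2 scale or 2.69-fold (SE 0.24, adjusted p = 0.125 by limma). The call held whichever sample was left out. At 4 h the coverage was 142620 and 94467 in WT and 88284 and 89053 in cKO. The groups did not overlap, but WT sample 2 lay close to both cKO samples, and the log2 fold change of -0.39 (SE 0.26, adjusted p = 0.376 by limma) was not called. Without WT sample 2 it was -0.69 and was called, and without WT sample 1 it was -0.091, so the size of the difference at 4 h depended on which WT sample was kept.

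The genotype effect on Il1a thus pointed one way at 0 h and the other at 4 h. The difference of the 2 effects was -1.82 on the log2 scale (SE 0.37, adjusted p = 0.0764 by limma), short of the threshold. Gm14023, a transcript on the opposite strand that shares 222 exon bases with Il1a, had mean coverage of 12.5 in WT and 24.0 in cKO at 0 h, and of 489 and 289 at 4 h. Its values moved in the same directions as those of Il1a, and reads in the shared bases cannot be told apart. At 4 h they lay far below those of Il1a (means of 118543 in WT and 88668 in cKO).

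Il18 encodes IL-18, a cytokine that is also cut by caspase-1 and is known for driving IFNγ production by lymphocytes. It lies on the plus strand at chr9:50554827-50581840. Il18 coverage at 0 h was 357 and 262 in WT and 352 and 333 in cKO. The cKO samples fell within the WT range, with a log2 fold change of 0.17 (adjusted p = 0.669 by limma). At 4 h it was 1172 and 1039 in WT and 880 and 847 in cKO. Here both cKO samples were below both WT samples, with a log2 fold change of -0.35 (SE 0.12, adjusted p = 0.160 by limma), which was not called. After each sample was centred on its median the log2 fold change was -0.69 and Il18 was called lower.

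Il1rn encodes the IL-1 receptor antagonist, in secreted and intracellular forms that the gene-level values add together. It lies on the plus strand at chr2:24336853-24351494. At 0 h Il1rn coverage was 391 and 488 in WT and 835 and 787 in cKO. The cKO samples lay above both WT samples, a rise of 0.89 on the log2 scale or 1.86-fold (SE 0.17, adjusted p = 0.137 by limma). With cKO sample 3 left out the value was 0.85 and with cKO sample 4 left out 0.94, and the call was lost in either case. At 4 h the coverage was 38811 and 36151 in WT and 35548 and 31561 in cKO. The difference was small and not called, with a log2 fold change of -0.16 (SE 0.12, adjusted p = 0.437 by limma). As for Il1a, the effects at the 2 times differed in sign, by -1.05 on the log2 scale (SE 0.21, adjusted p = 0.0719 by limma).

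Il18bp encodes the IL-18 binding protein, a secreted inhibitor known to be induced by IFNγ. It lies on the minus strand at chr7:102014885-102018690. At 0 h Il18bp coverage was 1250 and 1005 in WT and 633 and 712 in cKO. Both cKO samples were below both WT samples, and Il18bp fell by 0.74 on the log2 scale or 1.67-fold (SE 0.17, adjusted p = 0.174 by limma). This call was lost without WT sample 1 (-0.58), without cKO sample 3 (-0.66) and without cKO sample 4 (-0.83). At 4 h the order was turned, with 4158 and 3552 in WT and 5593 and 5853 in cKO. The groups did not overlap, but the fold change of 1.49 (log2 0.57, SE 0.13, adjusted p = 0.0989 by limma) lay just under the threshold of 1.5. Left without WT sample 1, it was 0.69 on the log2 scale and was called. Relative to the median gene, the log2 value at 4 h was 0.27.

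Il18bp showed the only positive change of effect among the soluble ligands and inhibitors, 1.31 on the log2 scale (SE 0.22, adjusted p = 0.0533 by limma). That adjusted p ran from 0.0102 to 0.144 over the processing alternatives, which put it on either side of the threshold. No member passed it as processed here, where 2.28% of 16284 genes passed with a larger effect at 4 h and 0.761% with a smaller one. An unadjusted p under 0.05 by limma was reached by 5 of the 8 members and by 22.1% of all genes tested. The neighbour Numa1 overlaps Il18bp by 80 exon bases on the opposite strand. Its mean coverage was 1926 in WT and 1561 in cKO at 0 h and 267 and 348 at 4 h. Between genotypes it moved in the directions of Il18bp, but with stimulation it fell while Il18bp rose. At 4 h it lay far below Il18bp (means of 3855 in WT and 5723 in cKO). Reads in the overlap cannot be told apart.

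**Figure D2:**
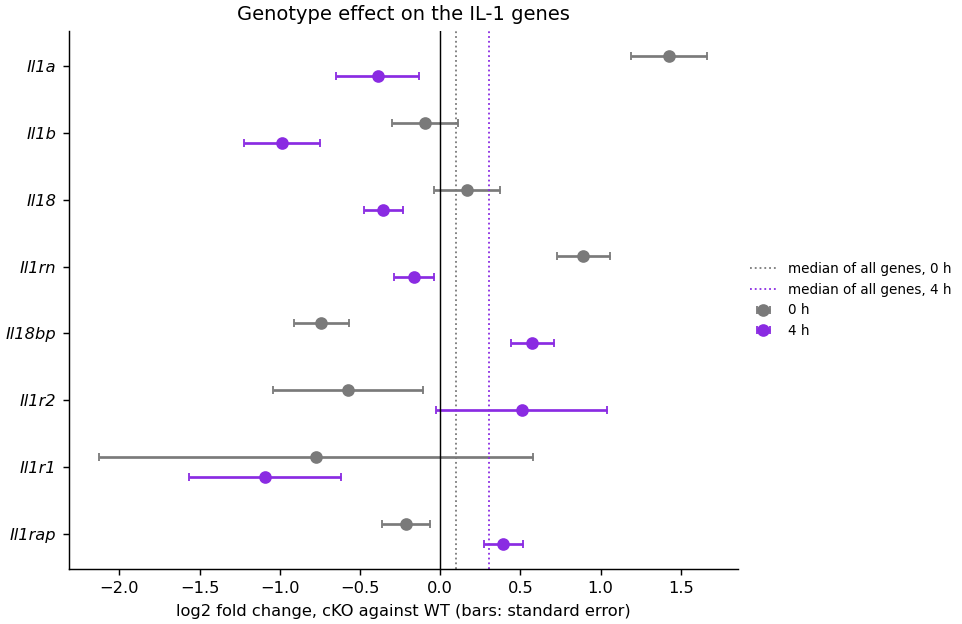
Log2 fold change of each IL-1 gene, cKO against WT, at 0 h (grey) and 4 h (purple), with standard errors from limma and the median over all genes as dotted lines (0.10 at 0 h and 0.31 at 4 h). Il1a, Il1rn and Il18 lie to the right of 0 at 0 h and to the left at 4 h, and Il18bp, Il1rap and Il1r2 do the reverse.

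The receptor chains were measured at lower levels than the ligands at 4 h, and none was called between genotypes at either time. Il1rap encodes the partner chain that IL-1 receptors need in order to signal (plus strand, chr16:26581704-26730117). Its coverage at 0 h was 146 and 178 in WT, with 136 and 143 in cKO. At 4 h it was 152 and 154 in WT and 214 and 188 in cKO. Neither time showed overlap between genotypes, the cKO samples being lower at 0 h (log2 -0.21, SE 0.15, adjusted p = 0.493 by limma) and higher at 4 h (log2 0.39, SE 0.12, adjusted p = 0.138), a 1.31-fold difference. The 4 h value was 0.086 relative to the median gene, 0.056 with each sample centred on its median, 0.046 after quantile normalization and 0.18 at equal total coverage. The change of effect was 0.61 on the log2 scale (adjusted p = 0.161 by limma). An antisense gene, Gm20319, shares 552 exon bases with Il1rap but was at 0 or below a mean of 1 in every group.

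Il1r1 encodes the signalling receptor for both ligands (plus strand, chr1:40225080-40317257). Its coverage was 0.586 and 3.71 in WT, against 0.331 and 1.97 in cKO at 0 h, so the samples of each genotype differed several times over and the groups overlapped (log2 -0.77, SE 1.35, adjusted p = 0.764 by limma). At 4 h it was 11.1 and 16.6 in WT and 4.43 and 8.94 in cKO. Both cKO samples were then below both WT samples, with a log2 fold change of -1.09 (SE 0.47, adjusted p = 0.224 by limma), which was not called. Without cKO sample 3 it was -0.60 and without cKO sample 4 it was -1.59, neither called. After median-centring it was -1.43 and was called lower.

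Il1r2 encodes the decoy receptor (plus strand, chr1:40074079-40125231). Its coverage was 3.35 and 1.47 in WT, against 1.47 and 1.45 in cKO at 0 h, where WT sample 1 stood apart from the other 3 samples (log2 -0.58, SE 0.47, adjusted p = 0.516 by limma). At 4 h it was 8.58 and 20.1 in WT and 21.7 and 16.2 in cKO. The groups overlapped at 4 h, and the log2 fold change of 0.51 (SE 0.53, adjusted p = 0.545 by limma) turned to -0.10 without WT sample 1. At 0 h the value ran from -1.15 without WT sample 2, where Il1r2 was called lower, to -0.0076 without WT sample 1, so that the 2 WT samples decided it.

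Ratios of 2 members within a sample do not change with the scaling of that sample, and they show the balance of agonist and inhibitor transcripts directly. They are given as descriptions with no test, since they join values already described. The ratio of Il1rn to Il1b was 3.83 and 4.04 in WT against 9.16 and 6.62 in cKO at 0 h, a 1.98-fold difference of geometric means. At 4 h it was 0.118 and 0.159 in WT against 0.253 and 0.233 in cKO, a 1.77-fold difference. Antagonist transcript per Il1b transcript was therefore higher in all cKO samples than in all WT samples at each time, through higher Il1rn at 0 h and lower Il1b at 4 h. Set against both agonists, Il1rn / (Il1a + Il1b) at 4 h was 0.0822 and 0.112 in WT and 0.155 and 0.140 in cKO. Against Il1a alone the direction differed, as Il1rn / Il1a at 0 h was 7.92 and 7.51 in WT and lower, 4.83 and 5.86, in cKO. At 4 h that ratio overlapped between the genotypes.

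The ratio of Il18bp to Il18 went the other way with time. It was 3.51 and 3.84 in WT, against 1.80 and 2.13 in cKO at 0 h. At 4 h it was 3.55 and 3.42 in WT and 6.36 and 6.91 in cKO. WT samples thus held nearly the same ratio at both times, whereas the cKO samples lay below them at 0 h and above them at 4 h. The 2 agonists were also split differently, as Il1b / Il1a was 2.07 and 1.86 in WT, against 0.527 and 0.884 in cKO at 0 h. At 4 h the same ratio was 2.31 and 2.41 in WT and 1.59 and 1.52 in cKO, so Il1a transcript exceeded Il1b transcript in the resting cKO samples only.

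**Figure D3:**
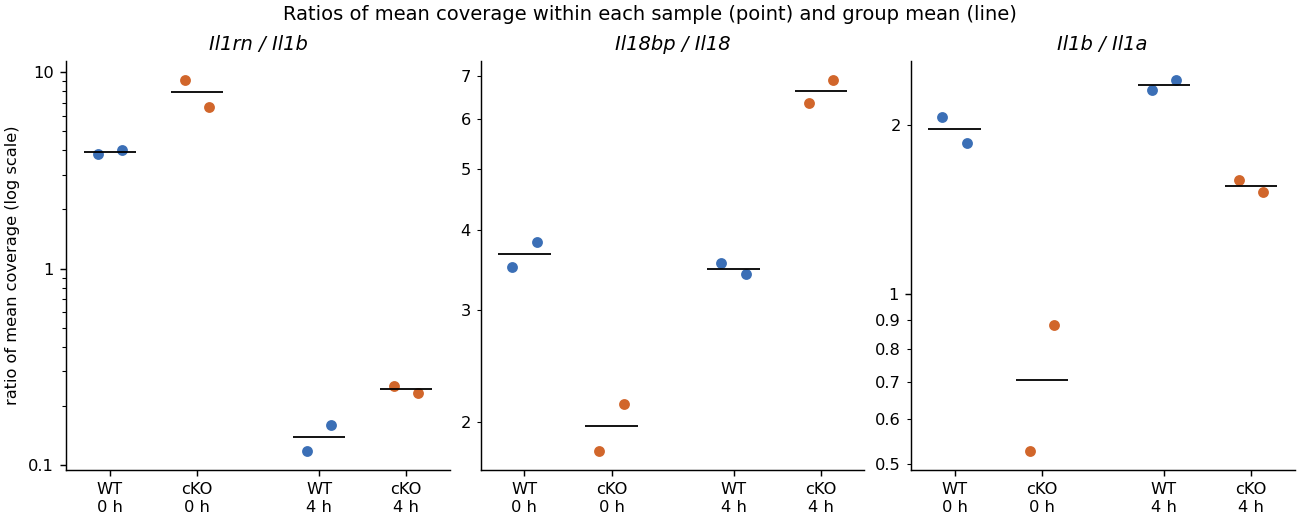
Ratio of mean coverage of 2 genes within each sample (points, log scale) with group means (lines), for Il1rn / Il1b, Il18bp / Il18 and Il1b / Il1a. In each panel the WT (blue) and cKO (orange) samples do not overlap at either time, and Il18bp / Il18 in cKO goes from below WT at 0 h (1.80 and 2.13) to above it at 4 h (6.36 and 6.91).

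Stimulation raised the ligands and inhibitors in both genotypes. In WT, 6 of the 8 members were called higher at 4 h and none lower, where 11.9% of 16002 genes were called higher and 55.1% lower. In cKO, 6 were called higher and none lower, where 13.7% of 16223 genes were called higher and 53.2% lower. The members' median log2 fold change was 2.80 in WT and 3.34 in cKO, and that of all genes was -1.27 and -1.05. The 2 times come from 2 tables, so these comparisons join values across them.

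Il1b rose by 11.27 on the log2 scale in WT (SE 0.26, 2463-fold) and by 10.37 in cKO (SE 0.18, 1326-fold). For Il1a the rise was 11.00 in WT (SE 0.31) and 9.18 in cKO (SE 0.17), and for Il1rn 6.42 (SE 0.18) and 5.37 (SE 0.11). The value of each of the 3 was smaller in cKO than in WT, but for Il1b the difference had an adjusted p of 0.210 by limma, and those of Il1a and Il1rn, given above, also missed the threshold. Il18 rose by 1.85 in WT (SE 0.23) and 1.33 in cKO (SE 0.09). Il18bp rose by 1.78 in WT (SE 0.20) and by 3.09 in cKO (SE 0.11), the one soluble member with the larger value in cKO (change of effect as above, adjusted p = 0.0533 by limma). The adjusted p of these 5 genes by limma lay between 0.00101 and 0.00921.

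The decoy receptor Il1r2 rose by 2.51 in WT (SE 0.68, adjusted p = 0.0492 by limma) and by 3.60 in cKO (SE 0.19, adjusted p = 0.00211). The WT call did not survive leaving out any one of the 4 WT samples in turn. It was also lost in 2 of the 9 other alternatives, among them fitting the replicate number as a block (adjusted p = 0.123 by limma). Il1r1 had a log2 fold change of 3.08 in WT (adjusted p = 0.0768 by limma) and 2.76 in cKO (adjusted p = 0.0945), neither of them called. Both were called higher with a pseudocount of 1, median-centring, quantile normalization, an intensity trend or the replicate block, and the WT value also with all 8 samples in the fit. The WT value was 1.84 without WT 0 h sample 1 and 4.32, and called, without WT 0 h sample 2. In cKO it was 1.63 without cKO 0 h sample 3 and 3.89, and called, without cKO 0 h sample 4. Il1rap read -0.080 in WT (adjusted p = 0.693 by limma) and 0.53 in cKO (adjusted p = 0.0286), the latter at a fold change of 1.44. Relative to the falling median gene, Il1rap was higher at 4 h in both, by 1.20 in WT and 1.58 in cKO. After median-centring all 8 members were called higher in each genotype, where 33.5% of all genes were then called higher in WT and 32.7% in cKO.

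**Figure D4:**
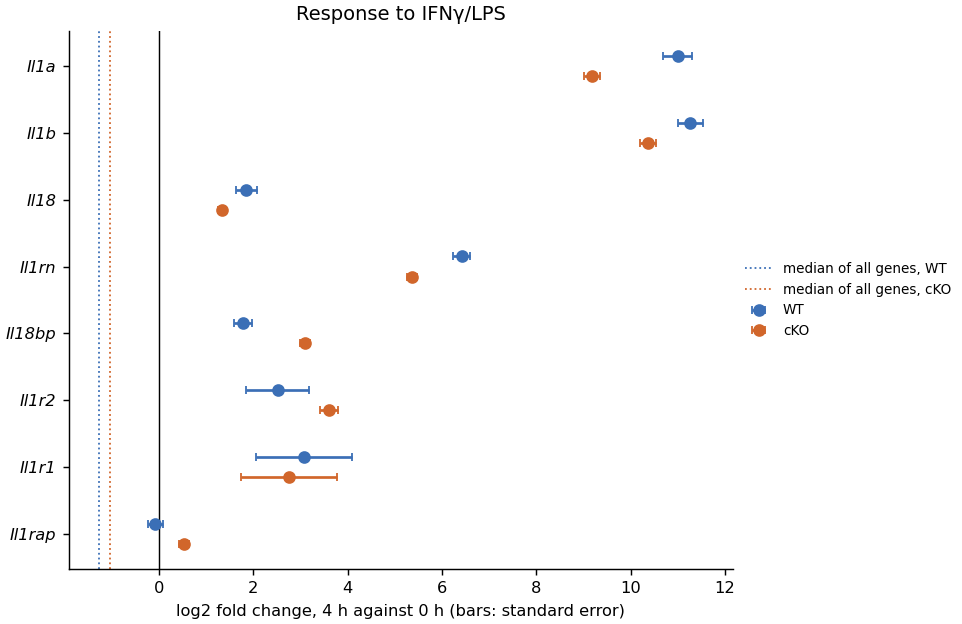
Log2 fold change of each IL-1 gene after IFNγ/LPS, 4 h against 0 h, in WT (blue) and cKO (orange), with standard errors from limma and the median of all genes as dotted lines (-1.27 in WT and -1.05 in cKO). Il1a, Il1b, Il18 and Il1rn have the larger value in WT and Il18bp has it in cKO.

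The order of levels changed with stimulation as well. In WT at 0 h the order of mean coverage was Il18bp (1128), Il1rn (439), Il18 (309), Il1rap (162), Il1b (111), Il1a (57.1), Il1r2 (2.41) and Il1r1 (2.15), and only the last pair overlapped between neighbours. In cKO at 0 h Il1rn (811) stood above Il18bp (672), and Il1a (154) stood above Il1rap (139) with overlapping samples. At 4 h the order in both genotypes was Il1b, Il1a, Il1rn, Il18bp, Il18, Il1rap, Il1r2 and Il1r1. Il1r2 and Il1r1 overlapped in WT (means of 14.4 and 13.8) and not in cKO (18.9 and 6.69).

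Across the 8 samples the gene whose log2 coverage was most like that of Il1a was Il1rn, and the reverse held too, with Pearson r = 0.9995 among 15272 genes. Il1b was most like Inava, Ccl12 and Stx6 (r from 0.9994 to 0.9997), and Il18bp most like Map2k1, Rab32 and Il23a (r from 0.9975 to 0.9987). Il1rap had the least close partner, Marf1 (r = 0.971). The points are 4 samples at each of the 2 times, and share the deposited scale of their time, so these values describe likeness of pattern and carry no test.

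The start sites of members that rose together are shown for the short motifs they hold. RefSeq promoter windows (GRCm38.p6, 300 bases, from 250 before to 50 after the start site) were found for all 8 members, 11 windows in all, and searched on both strands. Capitals mark the motif, and positions count from the start site.
Il1a TATAAA, -32 to -27 (chr2:129309987-129310016, minus strand): cttgaggaagacTATAAAaaggcagagaag
Il1b TATAAA, -31 to -26 (chr2:129371153-129371182, minus strand): gctttttaggacTATAAAacaagggaggga
Il1b TTNNGNAA, -91 to -84 (chr2:129371212-129371241, minus strand): cttcagttttgTTGTGAAAtcagttaaccc
Il18bp TTNNGNAA, -49 to -42 (chr7:102018263-102018292, minus strand): tggagccagtgTTGCGGAAgtgccttcctg
Il1rn TGANTCA, -141 to -135 (chr2:24336708-24336736, plus strand): ttctgctagacTGAGTCAcgcctctggaa
The TATA box letters TATAAA stand in 13.6% of all 32851 windows, TTNNGNAA (C/EBP) in 40.7% and TGANTCA (AP-1) in 7.81%. Among the members, the 2 agonists Il1a and Il1b hold TATAAA on the gene's own strand close before the start site. Il1a also holds GAGGAA (PU.1, in 28.3% of windows) and TTNNGNAA, which overlap each other, and TGANTCA. TTNNGNAA stands as well in both windows of Il1r1 and in the second and the third of Il1rn, which overlap, and TATAAA on the opposite strand in a window of Il18 and one of Il1rn. TTCNNNGAA (GAS, in 8.30% of windows) was found in the window of Il1r2 and the ISRE letters in that of Il1rap (3.44% of windows). A kB site by its usual consensus (4.51% of windows) was found in 1 of the 11 windows, the second of Il1r1.

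Since Nudt21 acts at the 3' end, the 3'UTRs of the members were searched for TGTA (UGUA in RNA) and for the AU-rich letters ATTTA, in the longest coding transcript of GENCODE M21. Over 13236 genes the medians were 999 bases of 3'UTR, 5 TGTA and 1 ATTTA, with no correction for length. The Il1b 3'UTR, of 459 bases, held 1 TGTA and 4 ATTTA, and that of Il1a, of 1101 bases, held 11 TGTA and 3 ATTTA. Each holds TATTTAT 3 times, letters found in 28.0% of the 3'UTRs. The densest stretches of 30 bases are shown for these 2 agonists, with the motif in capitals.
Il1b ATTTA (chr2:129364808-129364837, minus strand): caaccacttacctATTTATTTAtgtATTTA
Il1b TGTA (chr2:129364799-129364828, minus strand): acctatttatttaTGTAtttattgattggt
Il1a ATTTA (chr2:129300109-129300138, minus strand): attttatctatgtATTTAtaaatatATTTA
The single TGTA of Il1b lies inside its AU-rich stretch. Il1rn, with 1864 bases, held 6 TGTA and no ATTTA, and Il18bp, with 861 bases, held 3 of each. Il1rap (2676 bases) and Il1r1 (3864 bases) held 21 and 15 TGTA and 8 ATTTA each, the most among the members for both motifs, with TATTTAT 3 and 2 times, while the short 3'UTRs of Il18 (123 bases) and Il1r2 (24 bases) held 1 and 0. These counts describe sequence, and use of the sites was not measured here.

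Among the other IL-1 family ligands, 4 of 6 were in the tables. Il33 and Il1f6 (IL-36α) were listed at 0 in all 0 h samples, and at 4 h read 21.0 to 28.4 in WT and 12.9 to 20.3 in cKO for Il33, and 36.1 to 50.9 and 38.9 to 49.4 for Il1f6. Il1f9 (IL-36γ) rose in both genotypes by 4.66 and 4.72 on the log2 scale. None of the 3 tested at 4 h was called between genotypes, but after median-centring Il33 was called lower in cKO (log2 -0.93). Of the other receptors, 5 of 7 were in the tables, and Il1rl2, the IL-36 receptor, was called lower in cKO at 4 h (7.48 and 9.96 in WT, 5.35 and 5.52 in cKO, log2 -0.66, SE 0.19, adjusted p = 0.128 by limma). At 0 h Il1rl2 was higher in cKO and not called (32.3 and 33.9 in WT, 43.8 and 44.4 in cKO, log2 0.41). Its change of effect was -1.07 on the log2 scale (adjusted p = 0.0754 by limma), short of the threshold, and was called after median-centring (-1.34). The median of the 5 receptors at 4 h was -0.66, beside 0.31 for all genes, of which 4.17% were called lower. After median-centring 2 of them were called lower, Il1rl2 (log2 -0.99) and Il18rap (log2 -0.67), with 9.9% of all genes called lower.

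The 12 genes of processing and release showed 2 called higher, 1 called lower and 9 not called at 4 h (20.8% and 4.17% of all genes were called higher and lower), with a median log2 fold change of -0.071. Gsdmd, the pore through which IL-1β leaves the cell, read 2026 and 2271 in WT and 3384 and 3434 in cKO (log2 0.67, SE 0.12, adjusted p = 0.0732 by limma). Ninj1, a mediator of plasma membrane rupture, read 5762 and 6504 in WT and 9592 and 10781 in cKO (log2 0.73, SE 0.14, adjusted p = 0.0778 by limma). Capn2, a subunit of m-calpain, the protease type that cuts pro-IL-1α, was lower in cKO at 4 h (1516 and 1603 against 1025 and 1036, log2 -0.60) and higher at 0 h (1310 and 1352 against 1920 and 2130, log2 0.60). Its change of effect was -1.20 (SE 0.14, adjusted p = 0.0249 by limma) and passed the threshold. Casp1 itself, at 4160 and 4751 in WT, against 4337 and 4504 in cKO at 4 h, overlapped between genotypes and rose with stimulation by 1.69 and 1.61. After median-centring, none of the 12 was called higher at 4 h and 5 were called lower, where 10.4% and 9.9% of all genes were called higher and lower. The 5 were Capn2, Casp4 (log2 -0.80), Nlrp3 (log2 -0.72), Aim2 (log2 -0.70) and Nlrc4 (log2 -0.72). Gsdmd then stood at 0.33 and Ninj1 at 0.40. The 0 h call of Capn2 was lost with centring (log2 0.51).

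Of the 18 genes of receptor signalling, 3 were called higher at 4 h and none lower, against the same 20.8% and 4.17% of all genes, with a median log2 fold change of 0.26, below that of all genes. Ikbkg, which encodes the scaffold subunit NEMO of the IKK complex, read 218 and 232 in WT, against 614 and 641 in cKO at 4 h (log2 1.48, SE 0.10, adjusted p = 0.0438 by limma), and was also called higher at 0 h (646 and 736 against 1084 and 1291, log2 0.78). Traf6, the ubiquitin ligase downstream of MyD88, was higher by 0.65 on the log2 scale at 4 h (283 and 283 against 428 and 462), and Peli2, another ubiquitin ligase of the pathway, by 0.98 (44.7 and 52.5 against 79.9 and 114). After median-centring Ikbkg kept its call, Traf6 (0.32) and Peli2 (0.64) lost theirs, and 2 genes of the list, Tab1 and Chuk, were called lower, against the same centred shares of all genes.

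**Figure D5:**
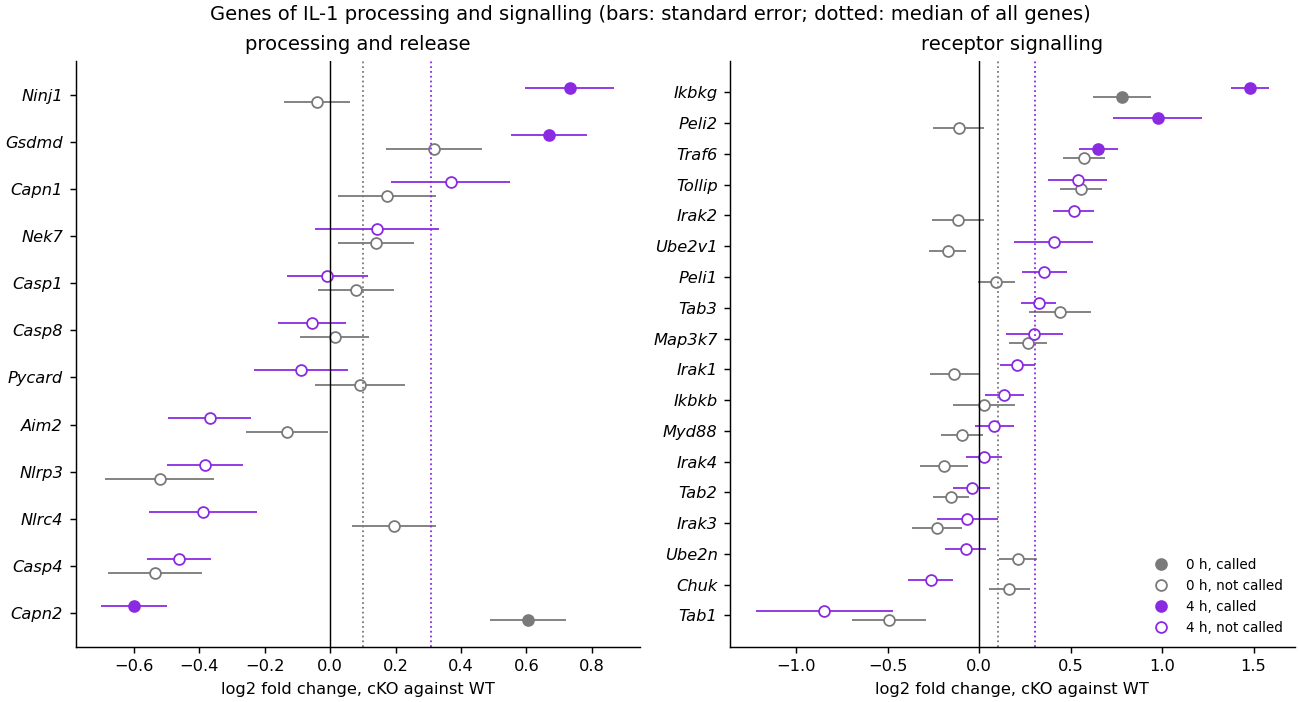
Log2 fold change, cKO against WT, of the 12 genes of IL-1 processing and release (left) and the 18 genes of receptor signalling (right) at 0 h (grey) and 4 h (purple), with standard errors. Filled points were called, open points were not, and dotted lines mark the median of all genes (0.10 and 0.31). Ikbkg lies farthest to the right at 4 h, at 1.48, and Capn2 is filled on both sides of 0 on the deposited scale.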

How the data were processed

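RNA-seq was read for 8 samples of BMDMs, 2 for each genotype and time, grouped by their titles. The authors aligned reads to GRCm38 with HISAT2 2.2.1 and quantified RefSeq genes with StringTie 2.1.7, and the deposited signal is a coverage per gene and sample, in 1 table for each time. The tables name no unit. It was read from the values: times transcript length, 38.0% of 1667 low values came within 0.02 of a whole number, against 4% for evenly spread remainders. Read numbers are not given, so the depth behind a value is unknown and no counting interval is given. The tables' own fold changes and p-values, the authors' comparisons, were not used. All columns of sample values were used (0 left out).

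log2(coverage + 0.1) was fitted with limma 3.58.1 in R 4.3.3 over genes with a mean of at least 0.5 in the samples compared, on the deposited scale, with calls at a fold above 1.5 and p under 0.05, a rule taken from the study's methods. The change of effect was an interaction term over all 8 samples. The fits were tested on simulated data, with a log2 change of 2 planted in 200 genes. For the change of effect only 35.5% of these genes were called, against 82.4% to 87.5% in the other comparisons. Unchanged genes were called at 0.042% and at 3.08% to 3.40%. A member that missed the threshold for the change of effect is thus not shown to be without one. The members and gene lists were chosen with earlier results of these data known. All 8 members are named, and of other lists those called or at the ends of the range, up to 3 a list. Exceptions, named after their values were seen, are Casp1, Casp4, Nlrp3, Aim2, Nlrc4, Il18rap, Tab1, Chuk and the cell type markers. Alternatives covered the pseudocount (1), the filter (none, or a mean of 1), scaling (median, total, quantile), the variance trend, the samples fitted, the replicate block and each sample left out. Positions and 3'UTRs came from GENCODE M21 (20726 of 21080 symbols matched), promoters from RefSeq, and primers from the study's list. P-values measure the spread between pooled samples. Protein sequences and polyadenylation site usage were not analysed here.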

Additional observations from a re-analysis of the deposited data

Results flagged for a closer look

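For 4 members the genotype effect at 4 h lay on the opposite side of 0 from that at 0 h, with every cKO sample on one side of both WT samples at one time and on the other side at the other. The same pattern was found in 8.86% of 16284 genes tested. The effect at 4 h minus that at 0 h was -1.82 on the log2 scale for Il1a (adjusted p = 0.0764 by limma's interaction term), -1.05 for Il1rn (adjusted p = 0.0719), 1.31 for Il18bp (adjusted p = 0.0533) and 0.61 for Il1rap (adjusted p = 0.161). None of the 4 passed an adjusted p of 0.05, so a difference between the times was not established for any of them. The size of the Il1rap difference at 4 h depended on the scale, its value of 0.39 being 0.056 after median-centring, where its change of effect was 0.34. For Il1a and Il18bp, an overlapping gene on the opposite strand moved in the same directions between genotypes, and its part in the pattern was not tested.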

How the results depend on the processing

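Among single members with all samples kept, 308 of the values recomputed under another setting kept both direction and side of the threshold. With the sign kept, 24 passed it newly and 2 lost it, and 2 changed sign, the cause not being tested. With 1 sample left out, 165 values kept both. Of the others, 6 passed the threshold newly and 11 lost it with the sign kept, and 10 changed sign. At 4 h, 3 members were called after median-centring and 3 after quantile normalization, Il1b, Il18 and Il1r1, all lower, against 1, where 9.9% and 9.87% of all genes were called lower. No member's change of effect was called as processed, whereas 1 was with a pseudocount of 1, 1 with no filter and 1 with a mean of at least 1 (Il18bp each time), 1 with quantile normalization (Il1b) and 3 with an intensity trend (Il1a, Il1rn and Il18bp). Il1rap in WT, at -0.080 after stimulation, read 1.37 median-centred and 1.23 quantile-normalized. Leaving out 1 sample at a time gave 0 to 2 members called at 4 h and 1 to 4 at 0 h. The same step gave log2 values from -0.10 to 1.12 for Il1r2 at 4 h, from -0.28 to 0.10 for Il1b, -0.058 to 0.39 for Il18 and -2.01 to 0.46 for Il1r1 at 0 h, from -0.22 to 0.062 for Il1rap in stimulated WT, and from -1.55 to 0.92 for the change of effect of Il1r1. A lone sample was assumed to vary like the other group.

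Replicate numbers recur at both times within a genotype, and the deviations of same-numbered samples barely correlated (r = 0.020 in WT and 0.024 in cKO). With 2 samples of a genotype at each time, this cannot tell whether same-numbered samples came from the same mice. The labels do not say so either. With the replicate block, 6 members were called after stimulation in WT and 7 in cKO, against 6 and 6, and 0 for the change of effect. With 2 samples a group the spread itself is poorly known, and Il1r1 and Il1r2, with mean coverage under 3 at 0 h, are the least precise.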
